A study of Mus musculus with 143 samples.

Results

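The class TSS_Random is a set of 500 captured mouse regions, 3.88% of the 12897 regions whose reporter activity was measured by capSTARR-seq in P5424 cells. The members were taken by that class name alone, which stands in both deposited tables, and no measured value entered the choice. TSS usually abbreviates transcription start site, the position where a gene's transcription begins, but the labels do not state how the 500 were drawn or from which genes. The files pair no region with a gene, so members are named by position on mouse build mm9, the build in the submitters' processing notes. All 500 were 400 bp long.

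Promoters recruit RNA polymerase to a start site, whereas enhancers raise transcription from a promoter elsewhere. The 2 roles can lie in the same DNA, and promoters that also act as enhancers have been described in several cell types. In capSTARR-seq, genomic fragments selected by capture are cloned downstream of a reporter promoter, so a fragment that works as an enhancer is transcribed into its own RNA. Regions are therefore tested here as enhancers, not as promoters of their own genes. P5424 is a mouse T cell line that grew out of a thymic tumour of animals lacking p53 and a Rag recombination gene, and it stands for immature T cells.

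Of the 143 samples in the study, 3 carry this experiment: RNA replicates 1 and 2 and 1 input library, all of P5424 cells, with no treatment or genotype contrast. Whether the replicates were separate transfections is not labelled, so p-values measure only the spread between these libraries, which may be technical. Both RNA libraries were divided by the same input, whose own error therefore enters both folds and is not measured.

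Activity is given as the fold over input, in which 1 is added to the FPKM of RNA and of input before they are divided. FPKM scales reads by region length and library size. Reads recovered from the FPKM steps put a median of 1003 input reads on a TSS_Random region, against 298 over all regions. The corresponding medians were 1148 and 308 reads in RNA replicate 1, and 1182 and 324 in RNA replicate 2. The members were thus covered more deeply than the median region, much as Pro_K4me3_K27ac_PolII, the class named for promoter marks, was with a median of 962 input reads. Input reads per member ran from 34 to 6594, and 2 members had 0 reads in RNA replicate 1 while none had 0 in replicate 2. With 8.92% of the reads in the input, the class took 10.04% and 10.3% of the reads in the RNA replicates.

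The middle of the class sat on its input. The median fold was 1.002 in replicate 1 and 0.995 in replicate 2, where all regions stood at 0.852 and 0.862 and the class named Random at 0.657 and 0.679. Below input in both replicates were 203 members, 40.6% against 50.8% of all regions, and above input in both were 202, 40.4% against 27.02%. The class was thus split evenly around its input, with a wide spread. From the 10th to the 90th percentile, the mean log2 fold of members ran from -0.95 to 0.83. In Random the same percentiles were -1.39 and 0.14.

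**Figure D1:**
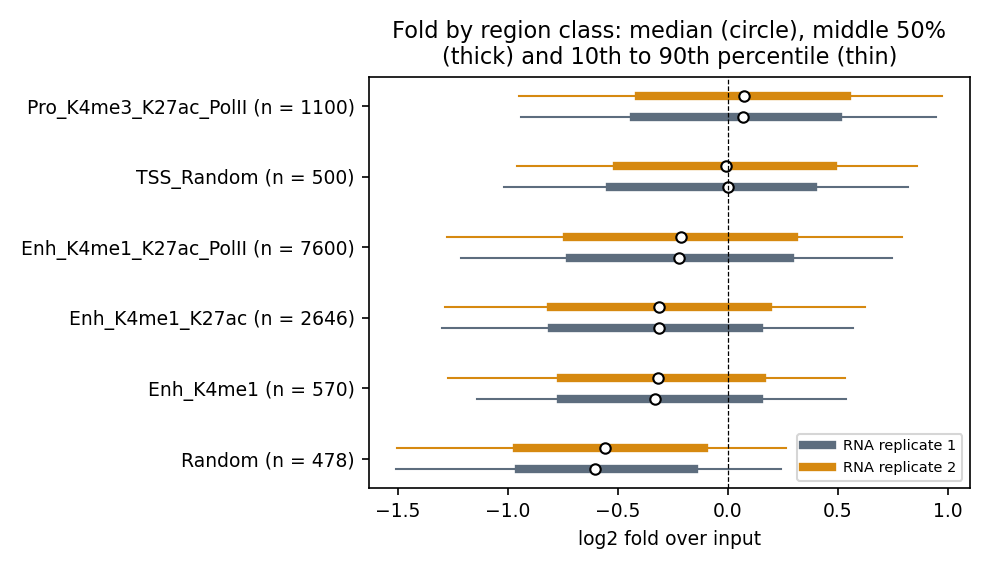
Log2 fold over input of the regions in 6 classes (horizontal axis), with a bar for each RNA replicate that shows the median, the middle 50% and the 10th to 90th percentile of regions. The TSS_Random medians lie at 0 within 0.01 in both replicates, next to those of Pro_K4me3_K27ac_PolII at 0.07 and above those of Random at -0.61 and -0.56.

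Against other classes the order of medians was the same in both replicates. TSS_Random lay 0.61 and 0.55 above Random in log2 fold, a mean difference of 0.58 ± 0.040 (SD, n = 2 replicates). It lay 0.23 and 0.21 above Enh_K4me1_K27ac_PolII, the largest class and one named for enhancer marks and RNA polymerase II (0.22 ± 0.013). Below Pro_K4me3_K27ac_PolII it lay by a smaller step, with differences of -0.06 and -0.08 (-0.07 ± 0.011). With 2 replicates an exact sign test cannot give a two-sided p below 0.5, so these differences between classes carry no p-value.

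A region was called active when its fold reached 1.5 in both replicates, which 8.51% of all regions did. Of the 500 members, 72 did so, or 14.4%. In Pro_K4me3_K27ac_PolII the share was higher, with 185 of 1100 active (16.8%), and in Random 6 of 478 were (1.26%). Replicate 1 alone called 88 members, beside 1751 of all 12897 regions, and replicate 2 alone 100, beside 1881. Thus 16 and 28 members were active in 1 library only, as were 653 and 783 of all regions. At a fold of 2 in both, 30 members remained, or 6% against 3.49% of all regions. A fold of 3 in both was reached by 3 members, or 0.6%, where 0.985% of all regions reached it. Members were thus found more often than the whole set at folds of 1.5 and 2, a description that no test over samples covers. At a fold of 3 the 3 members are too few to place the class above or below all regions. The authors' deposited class was active for 28 members in replicate 1 and 32 in replicate 2, beside 543 and 560 of all regions. It was active in both for 24, or 4.8%, against 2.70% of all regions, and each of those 24 is among the 72. The lowest fold of a member with that class was 2.13 in replicate 1 and 2.18 in replicate 2. Both are above 1.5, so this overlap follows from the folds and adds no separate support.

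**Figure D2:**
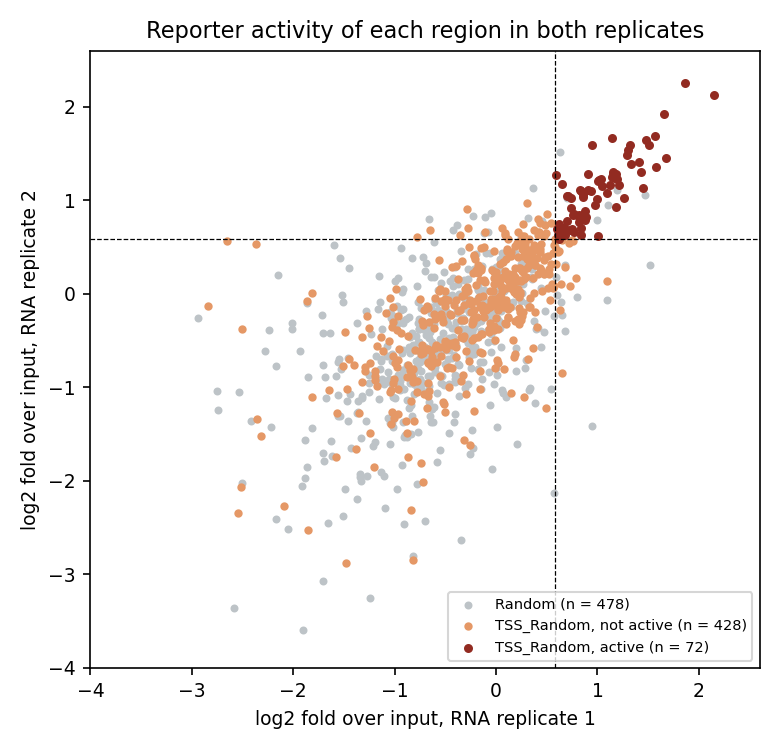
Log2 fold over input in RNA replicate 1 (horizontal) and RNA replicate 2 (vertical) for each TSS_Random region and each Random region, with dashed lines at a fold of 1.5. The 72 active members fill the upper right corner, and members that disagree between replicates lie mostly at low folds.

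The replicates were close for most members. Their log2 folds correlated across the 500 members with Pearson r = 0.767 and Spearman rho = 0.790. Both replicates share the input as divisor, and its part in this correlation was not tested. The median absolute log2 difference between replicates was 0.26 in the class and 0.35 over all regions. Only 27 members, 5.4%, differed by more than 2-fold, against 12.9% of all regions. Depth moved with this: the count was 9 of 34 members in the lowest quintile of input FPKM and 0 of 295 in the highest. The shares there were 26.5% and 0%, against 31.1% and 0.659% of all regions. In the second quintile the share was 28.6% against 17.8%, in the third 12.8% against 10.3% and in the fourth 4.17% against 4.43%. At like input the replicates of members were thus not closer throughout than those of all regions.

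The member of highest activity was on chromosome 16, from 33056104 to 33056503. It had 230 input reads against 1284 and 1320 RNA reads, which gave folds of 4.44 and 4.38 and a mean log2 fold of 2.14 ± 0.014 (SD, n = 2). Its replicates nearly coincided, although its input was below that of most active members. The region on chromosome 7 from 134234750 to 134235149 had 1328 input reads and 5840 and 8000 RNA reads, with folds of 3.63 and 4.76. On chromosome 1, the region from 137326876 to 137327275 had 2548 input reads and 9674 and 12202 RNA reads, with folds of 3.143 and 3.802. These are the 3 members past a fold of 3 in both replicates, a bound that itself puts both RNA libraries well above the input.

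Just short of that mark lay a group with 1 replicate above 3 and the other below. On chromosome 4, the region from 135411462 to 135411861 had folds of 2.97 and 3.23, with 2364 input reads. Also on chromosome 4, the region from 130219036 to 130219435 had folds of 2.80 and 3.13 over 1640 input reads. That on chromosome 1 from 166205516 to 166205915 had 3.19 and 2.74 over 489 input reads. The order of the replicates was not the same in all 3, so no replicate was the higher one throughout. Further members of this kind were on chromosome 6 from 147039463 to 147039862 (2.84 and 3.01) and on chromosome 3 from 153575730 to 153576129 (2.50 and 3.01). A second one on chromosome 7, from 140044156 to 140044555, had folds of 2.21 and 3.18, and on chromosome 2 that from 115407252 to 115407651 at 1.92 and 3.03. The last 2 had the widest replicate spread of the 20 most active members, with SDs of 0.37 and 0.46 on the log2 scale. Replicate 2 was the higher of the pair in 14 of those 20.

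The remaining 10 of the 20 lay between folds of 2.18 and 2.99 in both replicates. The best covered was on chromosome 17 from 34168557 to 34168956, with 5169 input reads and 15265 and 18240 RNA reads, at folds of 2.45 and 2.81. The closest replicates were those of the region on chromosome 5 from 28643461 to 28643860, at 2.65 in both. The SD on the log2 scale was 0.14 for the region on chromosome 17 and 0.0013 for that on chromosome 5. Neither SD holds the error of the shared input. Chromosome 11 held 3 of the 20: the region from 43495300 to 43495699 at 2.99 and 2.56, that from 120852444 to 120852843 at 2.46 and 2.90, and that from 118263206 to 118263605 at 2.73 and 2.18. Chromosome 7 held a further pair, from 125740611 to 125741010 at 2.68 and 2.47 and from 135020142 to 135020541 at 2.52 and 2.62. The others were on chromosome 4 from 133228362 to 133228761 (2.27 and 2.44), chromosome 2 from 13995527 to 13995926 (2.22 and 2.47) and chromosome 9 from 45714452 to 45714851 (2.22 and 2.43). The 20 came from 11 chromosomes, and 14 of them were in the highest input quintile. The authors' class was active in both replicates for 19 of the 20. The exception was the region on chromosome 2 at 1.92 and 3.03. The 20 were picked on high folds, so this adds no separate support.

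**Figure D3:**
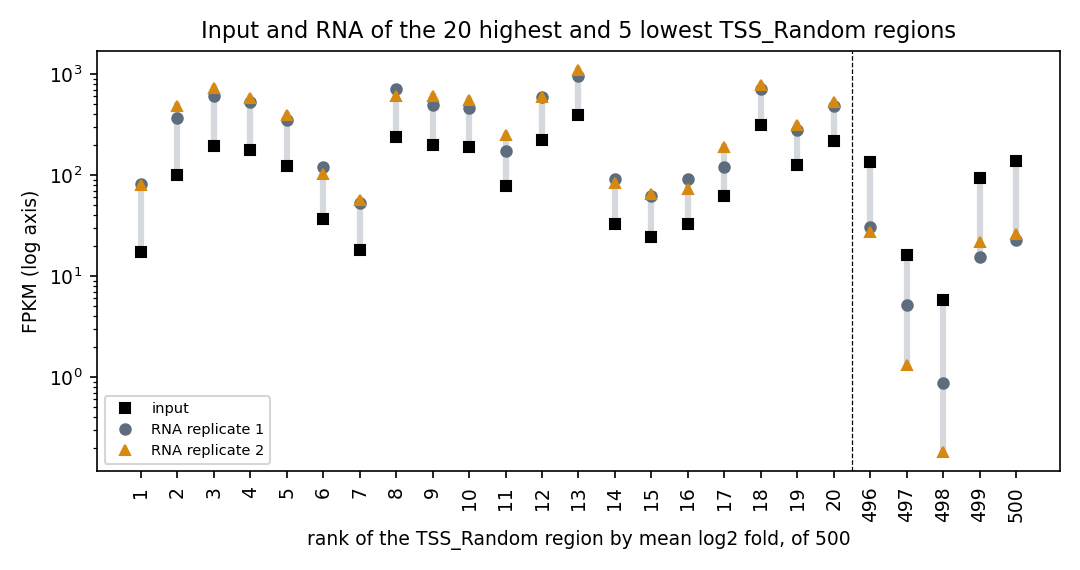
FPKM (vertical, log axis) in the input and both RNA replicates for the 20 TSS_Random regions of highest and the 5 of lowest mean log2 fold, ordered by rank among the 500. Both RNA values lie above the input in each of the 20, which taking them from active members fixes. They lie below it in each of the 5, which were picked as lowest.

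The 5 members of lowest fold had far less RNA than input. On chromosome 7, the region from 149466644 to 149467043 had 1814 input reads but 361 and 436 RNA reads, with folds of 0.171 and 0.197. That on chromosome 12 from 117723993 to 117724392 had 1234 input reads and 246 and 358 RNA reads, at 0.174 and 0.239. On chromosome 15, the region from 34766910 to 34767309 had 1769 input reads and 487 and 449 RNA reads, at 0.234 and 0.208. These 3 were in the highest input quintile and low in both replicates. The other two rested on few reads: 77 input reads and 14 and 3 RNA reads on chromosome 4 from 133809821 to 133810220, and 214 input reads and 82 and 22 RNA reads on chromosome 19 from 20801852 to 20802251. Over the whole class, 21 members (4.2%) were below a fold of 0.5 in both replicates, against 6.79% of all regions and 11.9% of Random.

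Some members gave very different folds in the 2 RNA libraries. Among those with at least 100 input reads the widest gap was on chromosome 11 from 120900532 to 120900931, with 290 input reads and 55 and 535 RNA reads, or folds of 0.194 and 1.45. Next came chromosome 14, where the region from 35335787 to 35336186 had folds of 0.569 and 0.140, and on chromosome X the one from 133078395 to 133078794 had 0.284 and 1.003. Chromosome 11 held another from 4023218 to 4023617, at 0.274 and 0.951, and chromosome 17 one from 13068700 to 13069099, at 1.41 and 0.430. Each had between 108 and 290 input reads, so none was in the 2 highest quintiles, and 2 of the 5, on chromosome 14 and at 4023218 on chromosome 11, were below input in both libraries. Their activity is poorly determined.

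Each region was also tested with limma, fitted on all 12897 regions, for a log2 fold different from the Random median of its replicate. To pass, a region needed a distance of at least 1.5-fold from that median and, after Benjamini-Hochberg adjustment over all regions, p under 0.05. The test called 24.0% of all regions more active than Random and 3.99% less active. Of the members, 224 (44.8%) passed as more active and 14 (2.8%) as less active. For Pro_K4me3_K27ac_PolII the shares were 48.3% and 2.64%, and for Random itself 6.49% and 8.79%. The share of members passing as more active depended on input. In the highest quintile of input FPKM it was 56.9% (all regions 42.2%) and in the fourth 41.7% (all regions 30.7%). From the third quintile down it was 23.4%, 14.3% and 2.94%, against 22.8%, 15.2% and 9.27% of all regions. All 72 active members passed as more active, with limma adjusted p between 1.2e-05 and 0.020, as did 152 members that were not active by the fold over input. For the region on chromosome 16 the log2 fold over the Random median was 2.72 with a standard error of 0.28 (limma adjusted p = 0.00035), and for the lowest one on chromosome 7 it was -1.86 with a standard error of 0.12 (limma adjusted p = 3.7e-05). All 5 members of lowest fold passed as less active, and none of the 5 with discordant replicates passed in either direction. The active, lowest and discordant members were all picked on the same folds that limma tests. These outcomes therefore follow largely from the choice and add no separate support.

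The limma counts rest on the choice of centre and of variance model, and the p-values leave out the error of the shared input. In simulated data whose input was as noisy as the RNA, many more unchanged regions were called than with an error-free input. The noise there was a set value, not fitted to these libraries, so it gives no error rate for the calls here. With the median of all regions as centre, 122 members passed as more active (24.4%, all regions 11.4%). As less active 51 passed (10.2%, all regions 9.82%). Against the input itself 77 (15.4%, all regions 6.32%) and 70 (14%, all regions 12.9%) passed. The balance between the directions thus moved with the centre. Taken over all input levels together, the share passing as more active stayed above that of all regions. Without a trend of variance on input 92 (18.4%, all regions 11.6%) and 4 (0.8%, all regions 1.16%) passed.

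Activity in the class moved with input level. Quintiles of input FPKM were cut over all regions, and 59% of the members fell in the highest. There the median fold of members was 1.08 and 1.11, and 59 of 295 were active, or 20% (Wilson 95% interval 15.8 to 24.9), against 14.7% of all regions in that quintile. In the fourth quintile the medians were 1.004 and 0.949, with 7 of 96 active (7.29%, all regions 7.16%). In the lower 3 quintiles the medians lay between 0.657 and 0.895, and 6 of 109 members were active in all. Their shares from the lowest quintile up were 2.94%, 7.14% and 6.38%, against 6.84%, 7.15% and 6.69% of all regions. The share of active members was thus above that of all regions in the highest quintile and near or below it in the others, and the share of all regions was also highest there. In that quintile 22.2% of Pro_K4me3_K27ac_PolII and 0.741% of Random were active. Active members had a median of 1651 input reads and the rest 930.

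Set against Random at the same input level, the class separated only in the upper quintiles. In the highest quintile its median log2 fold lay 0.77 and 0.83 above that of Random in the 2 replicates (0.80 ± 0.037, SD, n = 2), and in the fourth 0.63 and 0.58 (0.61 ± 0.039). In the third the differences were 0.29 and -0.04, in the second -0.01 and -0.04, and in the lowest -0.04 and 0.21. The replicates therefore disagreed in sign or lay near 0 over the lower 3 quintiles, which from the lowest up hold 34, 28 and 47 members. Few members stand behind each of these medians. Random itself had median folds of 0.678 and 0.772 in the lowest quintile and 0.633 and 0.624 in the highest.

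Against the other classes the position of TSS_Random also depended on input. Relative to Enh_K4me1_K27ac_PolII, whose medians stayed between 0.819 and 0.887 in every quintile, TSS_Random lay 0.37 and 0.43 higher in the highest quintile. In the second quintile it lay lower, by -0.16 and -0.24, and in the third by -0.05 and -0.15. In the fourth it lay 0.25 and 0.13 higher, and in the lowest the replicates differed in sign, at -0.41 and 0.07. Relative to Pro_K4me3_K27ac_PolII the difference was -0.08 and -0.07 in the highest quintile and 0.09 and 0.01 in the fourth. It was -0.03 and -0.02 in the third, while the replicates differed in sign in the second (0.03 and -0.29) and in the lowest (-0.46 and 0.05). In the upper 2 quintiles the medians of these 2 classes were thus closer to each other than either was to Random. What else differs between regions of high and low input, such as base composition, was not measured here, and its part in the result was not tested.

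**Figure D4:**
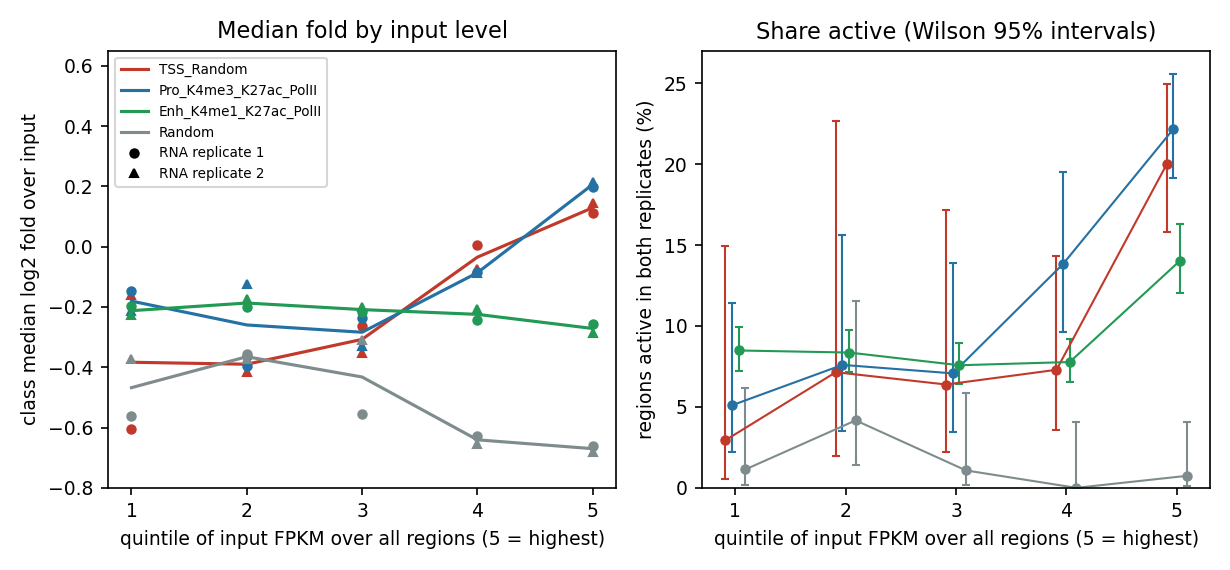
Left, class median log2 fold over input in each RNA replicate, and right, the percentage of regions active in both replicates with Wilson 95% intervals, by quintile of input FPKM (horizontal) for 4 classes. TSS_Random and Pro_K4me3_K27ac_PolII lie above Random and above Enh_K4me1_K27ac_PolII in the upper 2 quintiles on the left, and TSS_Random lies at 20% active in the highest on the right.

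The position of members relative to other captured regions was not part of the rule. A total of 18 members overlapped another region, by 76 to 386 bp, and in each case that region was of Pro_K4me3_K27ac_PolII. These 18 are therefore positions that the study also holds in its class of promoter marks. Of them, 7 of 18 were active (38.9%, Wilson 95% interval 20.3 to 61.4) and median folds of 1.15 and 1.34, and their median input was 2166 reads. The overlapping promoter region was active in the same 7 cases and in no other. Overlapping regions can count the same fragments, so the partner is no independent measurement. In 5 pairs, which overlapped by 341 to 386 bp, the read counts were identical in all 3 libraries, and 3 of those pairs were active. The 3 highest of the 18 were the regions already named on chromosome 4 (starts 135411462 and 133228362) and on chromosome 11 (start 118263206). A pair with less overlap, 76 bp on chromosome 17 at 15963350 to 15963749, stood further apart, at folds of 0.494 and 0.516 for the member and 0.753 and 0.807 for the promoter region. Without the 18, 65 of 482 members were active, or 13.5%.

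Members far from any other captured region were active less often than those nearer to one. With a gap of over 100 kb to the nearest region, 13 of 172 were active (7.56%, 4.47 to 12.5), and the median folds were 0.860 and 0.908. At 10 to 100 kb, 44 of 254 were active (17.3%, 13.2 to 22.5), with median folds of 1.03 and 1.06, and at 1 to 10 kb 8 of 55 were (14.5%, 7.56 to 26.2). Only 1 member had a gap of up to 1 kb, and it was not active. The intervals for over 100 kb and for 10 to 100 kb did not overlap, whereas that for 1 to 10 kb overlapped both. They treat regions as separate draws, and the 100 kb bound was read after the values were seen.

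Input moved with distance. Median input was 726 reads for members beyond 100 kb and 1176 for the 328 nearer ones. Within the highest input quintile, 10 of 85 members beyond 100 kb were active (11.8%, 6.52 to 20.3) and 49 of 210 nearer ones (23.3%, 18.1 to 29.5), so the order was the same there, with overlapping intervals. In the fourth quintile the shares were 3 of 38 and 4 of 58, or 7.89% and 6.90%, and no order was seen. In the lower 3 quintiles none of 49 distant members and 6 of 60 nearer ones were active. In Pro_K4me3_K27ac_PolII the share at over 100 kb was 36 of 213 (16.9%) and at 10 to 100 kb 116 of 678 (17.1%). In Random, as in TSS_Random, the share was lower at over 100 kb, with 1 of 269 active (0.372%) against 5 of 161 (3.11%) at 10 to 100 kb. Whether the classes differ in this was not tested.

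**Figure D5:**
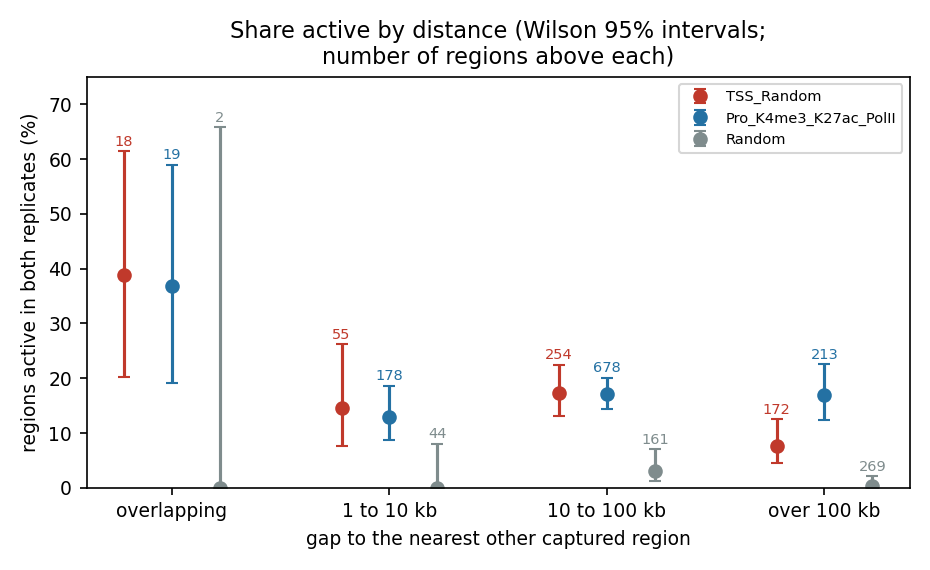
Percentage of regions active in both replicates (vertical, Wilson 95% intervals) by the gap to the nearest other captured region, for TSS_Random, Pro_K4me3_K27ac_PolII and Random, with the number of regions above each point and the range up to 1 kb left out. TSS_Random is at 7.56% beyond 100 kb and 17.3% at 10 to 100 kb, while the promoter class is near 17% in both.

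The kind of nearest region differed among members as well. The nearest region was Enh_K4me1_K27ac_PolII for 174 members, another TSS_Random region for 100, Pro_K4me3_K27ac_PolII for 83, Enh_K4me1_K27ac for 81, Random for 37, Enh_K4me1 for 24 and Add_Ctl for 1. Next to the promoter class 21 of 83 members were active (25.3%, 17.2 to 35.6), a group that includes the 18 overlapping ones. Next to Enh_K4me1_K27ac_PolII 24 of 174 were active (13.8%, 9.45 to 19.7), and next to another member 12 of 100 (12%, 7.00 to 19.8). Members next to another member had the lowest median folds of these 3, at 0.819 and 0.854, on a median input of 970 reads.

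A near neighbour did not have to share the activity of a member. Among the 56 members with a region within 10 kb but no overlap, 8 were active and 3 of their 8 nearest regions were active too. For the 48 inactive ones, 4 nearest regions were active. The member on chromosome 7 at 134234750 stood at 3.63 and 4.76, while the Enh_K4me1_K27ac_PolII region 8625 bp away stood at 0.728 and 0.965. The member on chromosome 6 at 147039463 had an Enh_K4me1_K27ac_PolII region at a gap of 8312 bp whose folds of 1.84 and 1.98 were also above 1.5. Both kinds of pair occurred, and the counts are too small to rank them.

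Across the genome the members were unevenly placed. Chromosome 7 held 64 of them, 12.8% of the class against 5.85% of all regions, and chromosomes 2 and 4 held 50 (10%, against 8.01%) and 46 (9.2%, against 5.81%). Chromosome X held 24, or 4.8% against 1.61%, while chromosome 15 held 4, or 0.8% against 4.76%. Active members were on 16 chromosomes. On chromosome 4, 13 of 46 were active (28.3%, all regions there 9.35%) and the median log2 fold of members was 0.25 in each replicate. On chromosome 6, 8 of 28 were active (28.6%, all regions 8.56%). On chromosome 7, 9 of 64 were active, or 14.1% against 7.95% of all regions there, and on chromosome X 1 of 24, or 4.17% against 10.6%. Of the 22 members on chromosome 13, 0 were active, where 6.96% of all regions were. Chromosomes 12, 14 and 15, with 9, 7 and 4 members, also had 0 active (all regions 11.1%, 4.67% and 7.00%). On chromosome 11, 6 of 24 were active (25%, all regions 8.94%) and on chromosome 19, 4 of 19 (21.1%, all regions 9.45%). The chromosomes named were picked after their values were seen. Median member input was 493 reads on chromosome 13 and 1665 on chromosome 4, and its part was not tested.

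Some members lay in runs along a chromosome. Linking members no more than 100 kb apart left 410 alone, 66 in 33 pairs and 24 in 8 runs of 3. Of those alone 52 were active (12.7%), of those in pairs 16 (24.2%, 15.5 to 35.8) and of those in runs of 3 4 (16.7%, 6.68 to 35.9). Median input was 932 reads for those alone, 1221 in pairs and 1224 in runs of 3, and its part in these shares was not tested. Members of a run could be alike or not. On chromosome 9, the 3 members between 123883325 and 124016888 were all below input, with mean log2 folds from -1.17 to -0.64. On chromosome 4, in the run from 116230063 to 116358348, the outer members were active at folds of 2.13 and 2.11 and of 2.001 and 2.31. The member between them stood at 0.4998 and 0.601, so neighbours within a run could lie on opposite sides of the input.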

How the data were processed

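The authors deposited 1 table per RNA replicate with RNA FPKM, input FPKM, their ratio as a fold, and an activity class (another kind of value, named after an inflexion point), per the file headers. The ratio equals (RNA FPKM + 1)/(input FPKM + 1) to within 4.8e-14. Tools named in the submitters' processing notes are Bowtie2, TopHat2 and Bowtie 1.2.2, without roles. FPKM values of 400 bp regions were whole multiples of 1 read within 0.1 reads for 100% of values, which gave the reads printed here; no count model was fitted. limma 3.58.1 (R 4.3.3) fitted an intercept to log2 folds (pseudocount 1 FPKM) centred on the Random median, with eBayes variance trended on log2 input, because a trend on the tested fold would tie error to effect. It was checked on simulated data with a set level of noise, where a noisy input added many calls among unchanged regions. Low log2 folds are understated. Wilson 95% intervals cover counting error only. Quintiles and gaps (edge to edge) used all regions; the nearest-region and run descriptions were chosen after seeing the data. Members and lists were chosen with earlier results of these data known. Named members are those at a fold of 3 in both replicates, the 20 highest among active ones, the 5 lowest, the 5 most discordant with at least 100 input reads, and the 3 highest that overlap a region; other positions were picked after their values were seen. No mm9 sequence was used. Alternatives changed pseudocount, input minimum, overlap, centre, trend, thresholds, bins, distance and replicates.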

Additional observations from a re-analysis of the deposited data

How the results depend on the processing

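Of 56 alternatives to the main counts, shares and class differences, 28 left counts within 1.5 times the main one or other values within the replicate spread. No paired analysis was possible because the input is a single library without a replicate number; limma on a single replicate has no spread to estimate and was not run. Members passing limma as more active went from 224 to 122 with the all-region centre, 77 uncentred and 92 without a trend. Less active members went from 14 to 51, 70, 4 and, with the trend on the mean fold, 0, where 0 of all regions passed too. At an unadjusted limma p under 0.05 that last setting put 9 members below the centre. Active members went from 72 to 202 (40.4%, all regions 26.9%) over the Random median. They went to 30 at a fold of 2 and 24 by the authors' class. In single replicates 100 and 88 were active, beside 1881 and 1751 of all 12897 regions. Strongly active members went from 3 to 29 over the Random median, and to 9 without replicate 1 and 4 without replicate 2. The shares of all regions under these rules are not given here, so the counts do not place the class above or below them. The log2 median difference from Random went from 0.58 to 0.32 as a mean over quintiles (0.55 to 0.61 by replicate). From Enh_K4me1_K27ac_PolII it went from 0.22 to 0.23 with pseudocount 0.1, 0.23 with at least 100 input reads, 0.19 without overlaps and 0.023 over quintiles (0.21 to 0.23 by replicate); the quintile mean weights equally quintiles that differ in sign, from -0.20 in the second to 0.40 in the highest. From Pro_K4me3_K27ac_PolII it went from -0.07 to -0.094 without overlaps (-0.08 to -0.06 by replicate). The active share at highest input was 21.2% in the top of 10 bins, and 23.1% to 24.7% by replicate. The excess in active share of members within 10 kb of a region, 6.89 percentage points, was 4.60 within 5 kb, 4.80 within 20 kb and 4.72 to 5.08 by replicate. Added after seeing the data, it was 10.4 within 100 kb, 0.905 without overlapping members and 9.22 with both, so the 10 kb excess rested on the 18 overlapping members. Single replicates turned the sign of 3 discordant members: log2 folds without replicate 1 and without replicate 2 were -1.22 and 0.49 on chromosome 17 (start 13068700), 0.0041 and -1.81 on chromosome X (start 133078395), and 0.54 and -2.36 on chromosome 11 (start 120900532). A pseudocount of 0.1 moved the chromosome 4 member at 133809821 from -2.19 to -3.50. Depth limits the lower 3 quintiles. The cause of these changes was not tested, except where fewer samples or regions enter by construction.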
